A study of Mus musculus with 9 samples.

Results

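The translation initiation factors are the proteins that bring the ribosome, the initiator tRNA and the messenger RNA together at the start codon. Their genes were followed in 9 expression arrays of mouse pre-B cells, which are precursors of B lymphocytes. Genes were taken by symbol: a single symbol in the platform annotation that starts with Eif and a digit from 1 to 6, without the Eif2ak kinases and the Eif4ebp inhibitors. This gave 41 genes, read by 112 of the 45101 probe sets, and for each gene the probe set with the highest mean over the 9 arrays was used. Of the 41 genes, 39 were bright enough to be tested, among 12827 genes tested in all. All cells in all groups were null for both IRF4 and IRF8, which are members of a family of transcription factors first known from interferon genes, and were grown in OptiMEM medium with fetal calf serum. In 3 arrays the cells had low IL-7, in 3 they had IRF4 put back and stayed in high IL-7, and in 3 they had high IL-7 alone. IL-7 is the cytokine that keeps B cell precursors alive and dividing. The labels give the amounts as 0.25 ng for low and 5 ng for high IL-7 but disagree on the volume. They name no group handled in the same way as the IRF4 cells but without IRF4, so the means of putting IRF4 back and IRF4 itself cannot be told apart. The labels do not say whether replicate arrays stem from separate cultures or mice, so the p-values cover only the variation among the arrays, which may be technical.

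As background, initiation starts when eIF2 carries the initiator tRNA to the small ribosomal subunit together with eIF1, eIF1A and the large complex eIF3. eIF2B recharges eIF2 with GTP after each round and is the point at which stress kinases slow translation. The eIF4 factors find the capped end of the messenger RNA: eIF4E binds the cap, eIF4A unwinds the RNA and eIF4G proteins hold the parts together. eIF5 and eIF5B then release eIF2 and join the large ribosomal subunit. In lymphocytes, growth signals such as IL-7 are known to raise translation through mTOR and MYC.

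Median intensities per array ran from 139.7 to 151.3, so a change in RNA per cell shared by all genes would not be seen. Of the 2 Irf4 probe sets, 1 stood at 1088 to 2543 in the IRF4 arrays and at 257 to 316 in low IL-7 and 202 to 381 in high IL-7. The other stood at 7161 to 7926 in low IL-7 and 3702 to 4256 with IRF4, against 4719 to 5791 in high IL-7, and both Irf8 probe sets were at 1966 or more in every array. The position of these probe sets relative to the deleted parts of both genes was not known, so they do not check the null alleles. Replicates correlated with r from 0.978 to 0.995 between arrays. The 8 B lineage markers with a probe set all lay above the filter, with a summed intensity of 63817 to 66551 in low IL-7 and 46466 to 48934 with IRF4, against 42618 to 51348 in high IL-7, and 5 of the 8 rose in low IL-7 (median 0.54). All 10 stromal markers had a probe set and 9 lay above the filter, all but Dcn. Their sum was 10864 to 13697 in low IL-7 and 11521 to 22476 with IRF4, against 10903 to 27981 in high IL-7, and 3 of the 9 fell in low IL-7, with a median of -1.68 over the 9. The brightest stromal marker averaged 8601 over the 9 arrays, a large part of the stromal sums. The part of these marker differences in the changes of the initiation factor genes was not tested. Fewer cells of a type and less RNA per cell cannot be told apart in such bulk samples. Of 8 myeloid markers 4 were above the filter, with a sum of 1105 to 1253 in low IL-7 and 999 to 1165 with IRF4, against 1023 to 1089 in high IL-7. Of 6 T cell markers 3 were above it and of 5 erythroid markers 1. No marker of these lists averaged 0 over the arrays, and the dimmest, a T cell marker, averaged 14.8.

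Most initiation factor genes had lower levels in low IL-7. Against high IL-7, 25 of the 39 tested genes fell and 3 rose, with a median change of -0.34 over the 39 on the scale of log2(intensity + 16). Among all 12827 genes 19.5% fell and 17.8% rose, with a median of 0.02. A gene is said to rise or fall where limma's moderated test, fitted on all genes and all 9 arrays, gave a Benjamini-Hochberg adjusted p under 0.05. The largest falls were those of Eif2b3 and Eif1a, which kept 0.342 and 0.355 times their level, and the 3 rises were Eif4e3, Eif3f and Eif3h. In 27 of the 39 genes all 3 low IL-7 arrays lay below all 3 high IL-7 arrays, as they did in 24.7% of all genes. The 39 genes are bright, and 38 of them lay above the median level of the genes tested. With the filter raised from the 40th to the 60th percentile of probe set means, 24 of 38 of them fell, against 25.2% of the 9472 genes then tested. The 25 falls ran from -1.55 to -0.22.

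**Figure D1:**
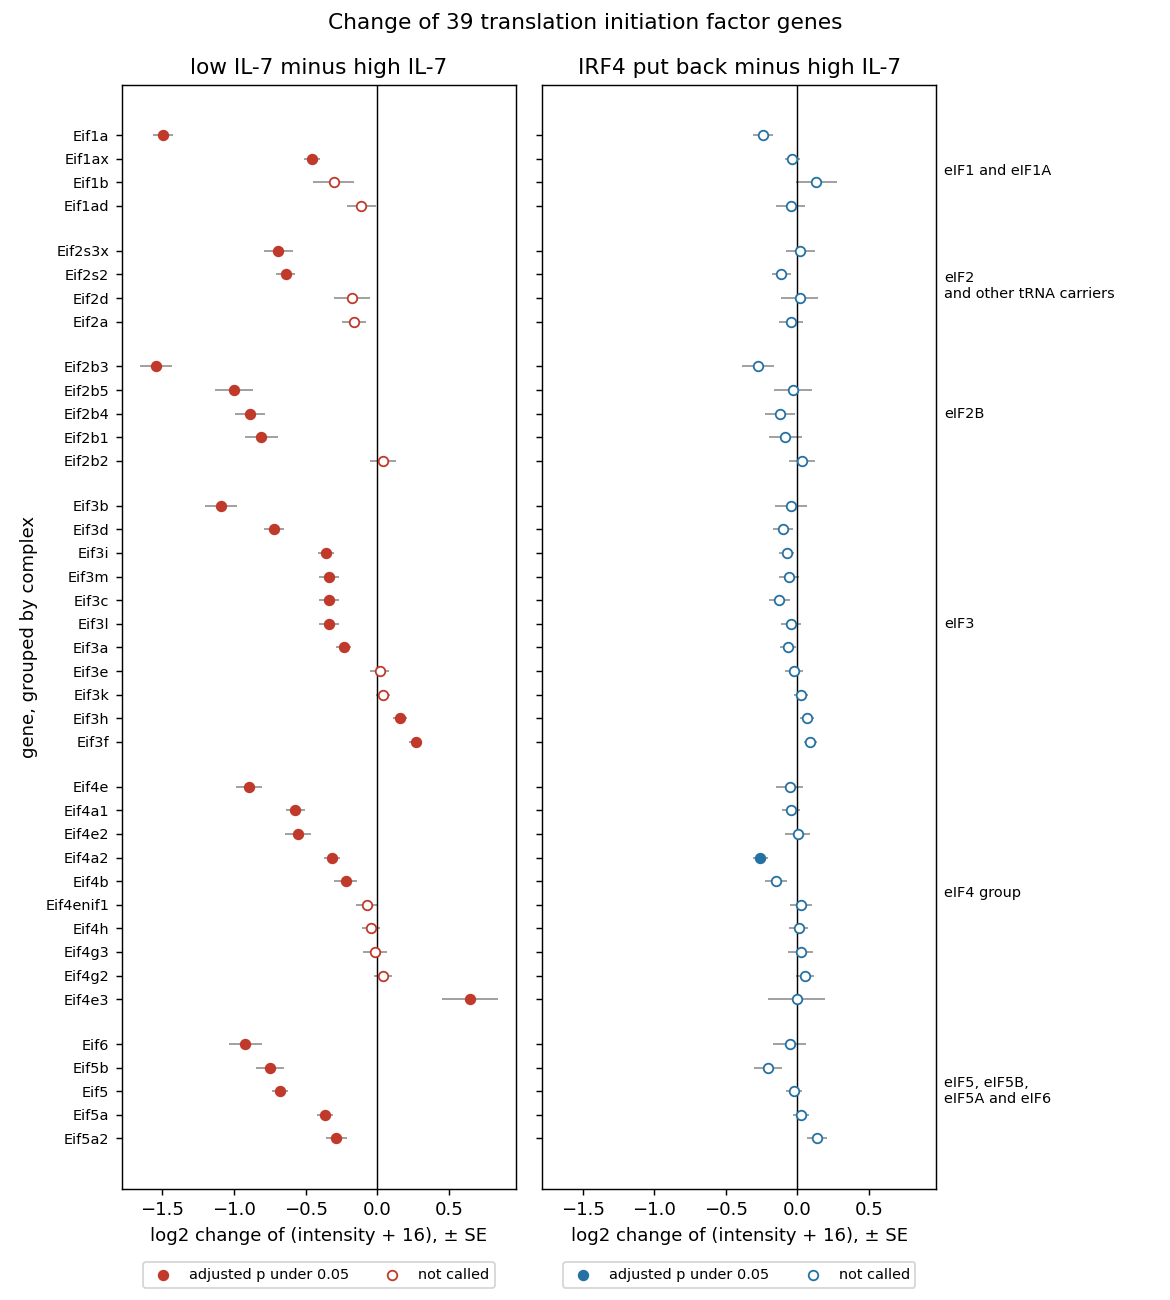
Log2 change of (intensity + 16) with its SE for the 39 tested genes, grouped by complex, in low IL-7 minus high IL-7 (left) and with IRF4 put back minus high IL-7 (right), 3 arrays a group. Filled points passed the test: 25 lie left of 0 and 3 right of 0 in low IL-7, and 1, Eif4a2, is filled with IRF4.

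**Figure D2:**
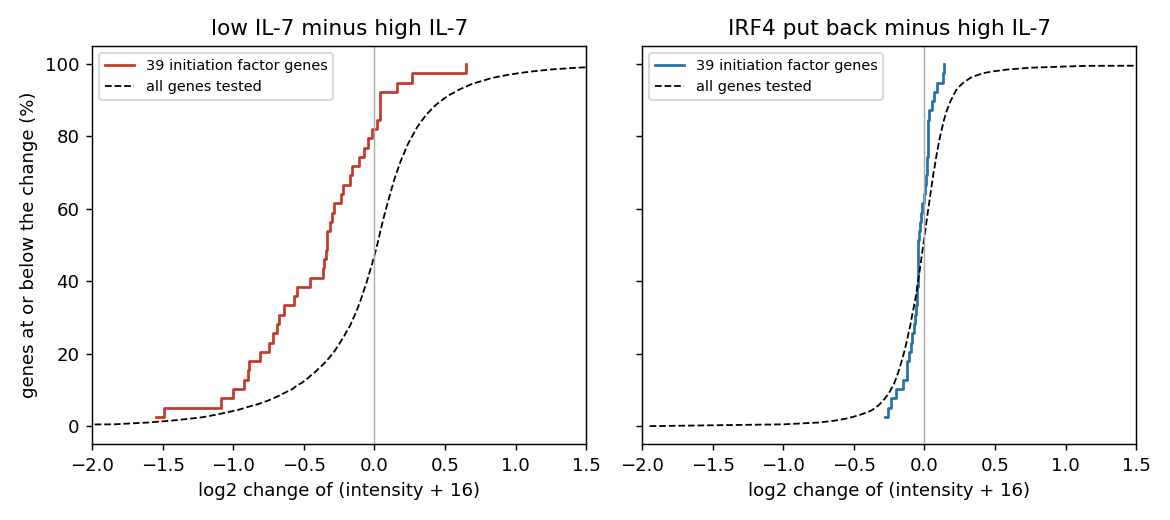
Cumulative share of genes (%) by log2 change of (intensity + 16), for the 39 initiation factor genes (solid) and all 12827 tested genes (dashed). In low IL-7 the solid line lies to the left of the dashed one, with medians of -0.34 and 0.02, while with IRF4 the medians are -0.04 and -0.01.

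eIF2B, the exchange factor that reloads eIF2 with GTP, had the lowest median change of the 6 groups of factors, at -0.89, and 4 of its 5 subunit genes fell. Each of these 4 genes had only 1 probe set above the filter. Eif2b3, the gamma subunit, read 330, 285 and 281 in the low IL-7 arrays and 796, 807 and 637 in the IRF4 arrays, against 900, 876 and 932 in the high IL-7 arrays. All low IL-7 arrays lay far below the others, a change of -1.55 (SE 0.11, adjusted p = 2.51e-06). Eif2b5, the epsilon subunit, which carries the exchange activity, read 848, 724 and 717 in low IL-7 and 1379, 1501 and 1657 with IRF4, against 1876, 1371 and 1415 in high IL-7. It fell by 50% (SE 0.13 on the log2 scale, adjusted p = 0.000146), with no overlap between low and high IL-7. Eif2b4, the delta subunit, read 696, 556 and 581 in low IL-7 and 973, 1110 and 1067 with IRF4, against 1205, 1066 and 1156 in high IL-7, a change of -0.89 (SE 0.11, adjusted p = 7.23e-05). Eif2b1, the alpha subunit, read 1068, 897 and 938 in low IL-7 and 1672, 1799 and 1373 with IRF4, against 1566, 1789 and 1763 in high IL-7, a change of -0.81 (SE 0.12, adjusted p = 0.000266). For both genes the low IL-7 arrays were again the 3 lowest. The beta subunit gene Eif2b2 stood apart, at 2849, 2752 and 2701 in low IL-7 and 2696, 3165 and 2449 with IRF4, against 2623, 2769 and 2693 in high IL-7. Its change was 0.04 (95% interval -0.16 to 0.24, adjusted p = 0.782), and its 3 probe sets above the filter changed by -0.04 to 0.04.

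Both eIF2 subunit genes that were tested also fell, and the other genes of eIF2 were not tested. Eif2s2, the beta subunit, stood at 6347 to 6570 in low IL-7 and 8310 to 10187 with IRF4, against 9721 to 10459 in high IL-7, a change of -0.64 (SE 0.07, adjusted p = 3.1e-05). Eif2s3x, the X-linked gamma subunit that binds the tRNA, stood at 2824 to 3682 in low IL-7 and 5039 to 5532 with IRF4, against 4798 to 5732 in high IL-7, a change of -0.69 (SE 0.10, adjusted p = 0.000303). Its Y-linked copy Eif2s3y was below the filter, at 26.8 to 31.3 in low IL-7, 23.8 to 32.2 with IRF4 and 26.8 to 41.7 in high IL-7, and was not tested. Eif2a and Eif2d, which can bring the initiator tRNA without eIF2, changed by -0.16 (adjusted p = 0.165) and -0.18 (adjusted p = 0.318) and did not pass.

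eIF3, the scaffold that holds the small subunit ready for the messenger RNA, split by subunit: of the 11 eIF3 genes analysed here, which are not the whole complex, 7 fell, 2 rose and 2 did not pass. Eif3b, a large subunit at the core of the complex, read 2076, 1834 and 1627 in low IL-7 and 3627, 3700 and 4140 with IRF4, against 4523, 3509 and 3825 in high IL-7. It fell by 53% (log2 -1.09, SE 0.11, adjusted p = 2.66e-05). Eif3d, a subunit that can itself touch the cap, read 3602, 3166 and 3198 in low IL-7 and 5203, 5026 and 5103 with IRF4, against 5884, 5212 and 5331 in high IL-7, a change of -0.72 (SE 0.07, adjusted p = 1.61e-05). These were the strongest falls in the complex, with every low IL-7 array under every other array. Smaller falls, from -0.36 to -0.23, were those of Eif3i, which binds Eif3b, and of Eif3m, Eif3c, Eif3l and Eif3a, subunits of the ring built on the PCI fold. Eif3e and Eif3k, of the same ring, changed by 0.02 (95% interval -0.13 to 0.16) and 0.04 (95% interval -0.06 to 0.15) and did not pass. The rises were those of the pair of subunits with an MPN fold. Eif3f read 9990, 9859 and 9759 in low IL-7 and 9092, 8735 and 8348 with IRF4, against 8474, 7988 and 8123 in high IL-7, a change of 0.27 (SE 0.04, adjusted p = 0.000729). Eif3h read 8054, 7835 and 7934 in low IL-7 and 7633, 7590 and 7107 with IRF4, against 7296, 7323 and 6721 in high IL-7, a change of 0.16 (SE 0.05, adjusted p = 0.0281). In both genes the low IL-7 arrays were the highest of the 9. The call of Eif3h was lost without any 1 low IL-7 array or without high IL-7 replicate 3 (adjusted p up to 0.126), without a variance trend (0.109) and when arrays were scaled to the same median (0.159). Eif3h had 1 probe set above the filter, and its others were dim, with means of 17.2 and 17.7. These changed by -0.32 (adjusted p = 0.0307 over all probe sets) and -0.23 (adjusted p = 0.173 over all probe sets). Whether the subunits differ from each other was not tested.

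**Figure D3:**
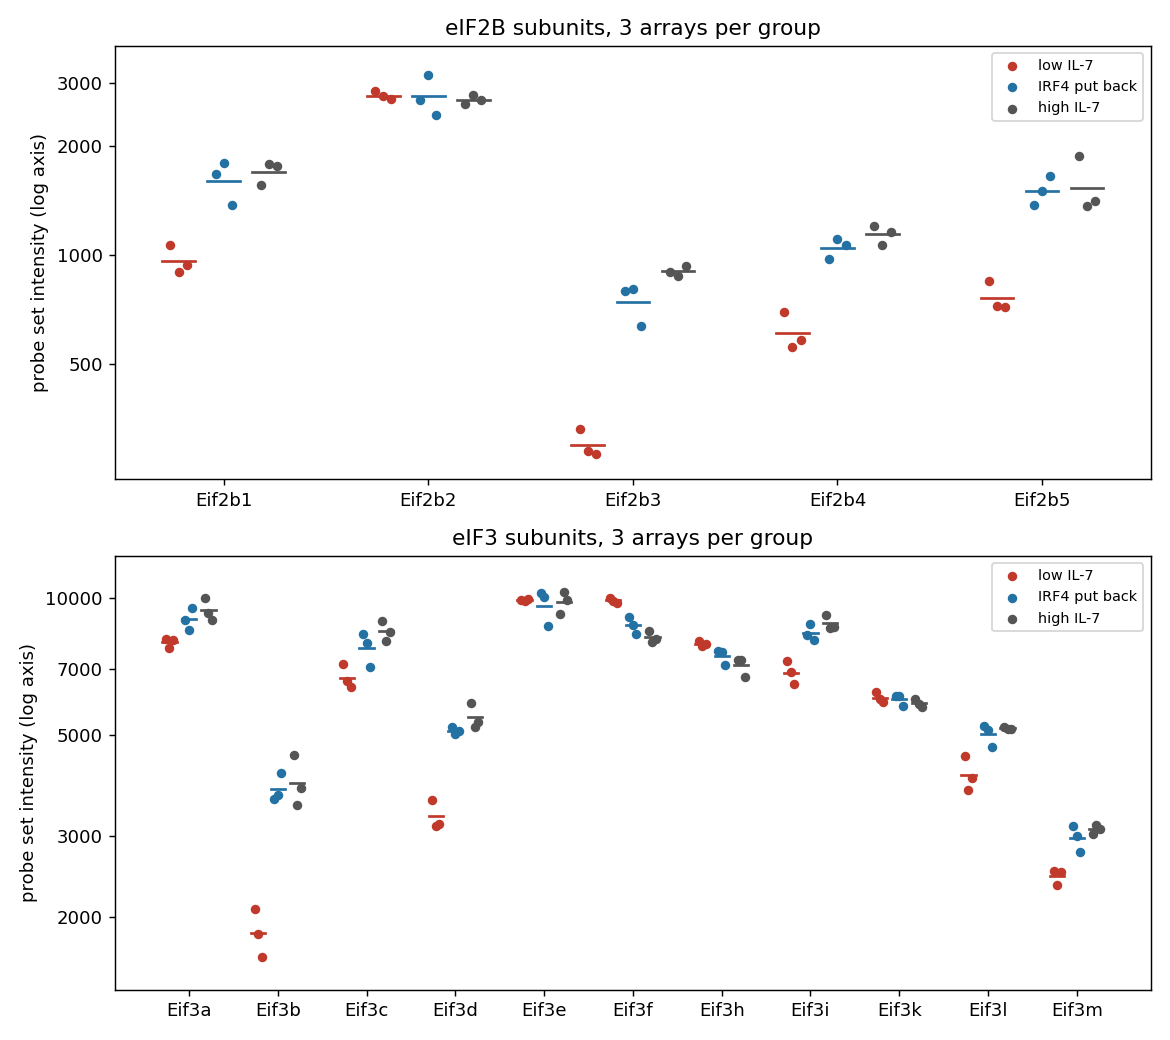
Probe set intensity (log axis) of the 5 eIF2B and 11 eIF3 subunit genes, 3 arrays a group as points and the mean of log2(intensity + 16) as a bar. In eIF2B the low IL-7 points lie apart from the rest for all subunits but Eif2b2. In eIF3 they lie lowest for Eif3a, Eif3b, Eif3d, Eif3i, Eif3l and Eif3m and highest for Eif3f and Eif3h. Heights of different genes are not comparable.

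The cap-binding and helicase genes of the eIF4 group fell in part: of 10 tested, 5 fell, 1 rose and 4 did not pass. Eif4e, the cap-binding protein, read 2462, 2162 and 1945 in low IL-7 and 3890, 3795 and 4070 with IRF4, against 4316, 3703 and 4210 in high IL-7. It fell by 46.2% (log2 -0.90, SE 0.09, adjusted p = 2.81e-05), with all low IL-7 arrays below the rest. Eif4e2, a relative of eIF4E known to hold caps without starting translation, read 1521, 1395 and 1308 in low IL-7 and 2030, 2256 and 1934 with IRF4, against 2201, 2001 and 2003 in high IL-7, a change of -0.55 (SE 0.09, adjusted p = 0.00066). The third relative, Eif4e3, an atypical cap binder, went the other way, at 2610, 2178 and 2330 in low IL-7 and 2135, 1400 and 1131 with IRF4, against 1281, 1718 and 1550 in high IL-7. Low IL-7 arrays were above all others for Eif4e3, a change of 0.65 (SE 0.20, adjusted p = 0.025), but the IRF4 arrays spread widely. Its call was lost when replicate 1 or 3 of low IL-7 or of high IL-7 was left out (highest adjusted p = 0.0841), and its dimmer probe set changed by 0.24 (adjusted p = 0.17 over all probe sets).

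The helicase Eif4a1 stood at 4782 to 5642 in low IL-7 and 7518 to 7734 with IRF4, against 7644 to 8315 in high IL-7, a change of -0.57 (SE 0.07, adjusted p = 5.43e-05). Its paralog Eif4a2 fell by 19.6% (log2 -0.32, SE 0.05, adjusted p = 0.000945). Eif4b, which stimulates the helicase, changed by -0.22 (SE 0.08, adjusted p = 0.044), a call lost when any high IL-7 array, replicate 2 or 3 of low IL-7 or replicate 2 of IRF4 was left out (highest adjusted p = 0.156). It was also lost with quantile normalization (adjusted p = 0.0672), no filter (0.055) or no variance trend (0.0816). Eif4h, a helper like Eif4b, changed by -0.05 (adjusted p = 0.631) and Eif4enif1, a shuttle that carries eIF4E into the nucleus, by -0.07 (adjusted p = 0.49). The 2 scaffold genes analysed here, which are not the whole eIF4G family, did not pass. Eif4g2 read 8638, 9613 and 9768 in low IL-7 and 9196, 8923 and 10171 with IRF4, against 8703, 9343 and 9208 in high IL-7, a change of 0.04 (95% interval -0.10 to 0.18). Eif4g3 read 1634, 1512 and 1495 in low IL-7 and 1572, 1552 and 1641 with IRF4, against 1733, 1517 and 1451 in high IL-7, a change of -0.02 (95% interval -0.21 to 0.18). Groups overlapped in both scaffold genes. Eif4a3, a helicase of the exon junction complex, was below the filter on its single-gene probe set, at 90.9 to 101.6 in low IL-7, 84 to 95.6 with IRF4 and 88.2 to 94.6 in high IL-7, and was not tested.

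**Figure D4:**
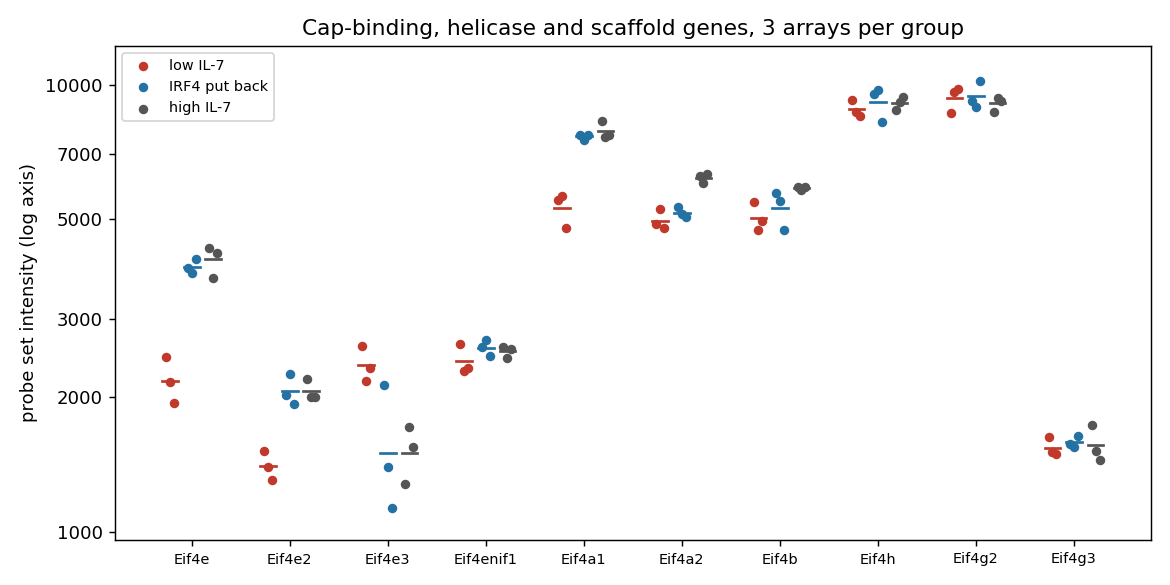
Probe set intensity (log axis) of the 10 tested cap-binding, helicase and scaffold genes, 3 arrays a group as points and the mean of log2(intensity + 16) as a bar. Low IL-7 points lie lowest for Eif4e, Eif4e2 and Eif4a1 and highest for Eif4e3, and the IRF4 points of Eif4a2 lie with those of low IL-7; heights of different genes are not comparable.

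Eif4e is a textbook target of MYC, which binds with MAX to the E-box CACGTG, so the letters upstream of the annotated starts were searched. RefSeq promoter sequences of the build GRCm38.p6 were at hand for 33 of the 41 genes, and the 250 bases before each start were read, once, since CACGTG is the same on both strands. It was found in 8 of the 33 genes, against 6.86% of the 27025 genes in the table. These were 4 of 21 genes that fell in low IL-7, Eif4e, Eif4a1, Eif5a and Eif5a2, the 1 gene that rose and had a sequence, Eif3f, and 3 of 9 that did not pass, Eif1b, Eif3k and Eif4h. Shown are 3 of the genes that fell and Eif3f, which rose, 5′ to 3′ and up to the base before the start, with CACGTG in capitals. Counted from the start, it begins at -228 and -64 in Eif4e, -189 in Eif4a1, -74 in Eif5a and -68 in Eif3f. The table holds other annotated starts for 2 of these genes: CACGTG was in 1 of 2 windows of Eif4e and in 3 of 6 of Eif5a, and a window with the most matches is shown. Some windows of Eif5a overlap, and the match shown for it lies in more than 1 of them. Such matches are a description and are not shown to be binding sites. The 6.86% covers genes of any level, while the initiation factor genes are bright, and no share of equally bright genes was computed.
Eif4e at chr3:138527018-138527267, plus strand: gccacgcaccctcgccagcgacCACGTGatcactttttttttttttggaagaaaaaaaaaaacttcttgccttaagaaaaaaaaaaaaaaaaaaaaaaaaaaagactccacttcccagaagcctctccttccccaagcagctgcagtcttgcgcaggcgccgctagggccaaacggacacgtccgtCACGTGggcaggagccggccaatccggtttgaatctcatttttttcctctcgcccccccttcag
Eif4a1 at chr11:69672424-69672673, minus strand: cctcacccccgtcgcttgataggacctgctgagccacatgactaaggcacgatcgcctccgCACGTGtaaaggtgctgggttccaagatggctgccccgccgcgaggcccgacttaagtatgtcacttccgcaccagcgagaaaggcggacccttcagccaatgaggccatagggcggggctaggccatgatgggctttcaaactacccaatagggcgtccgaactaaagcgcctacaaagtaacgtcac
Eif5a at chr11:69921387-69921636, minus strand: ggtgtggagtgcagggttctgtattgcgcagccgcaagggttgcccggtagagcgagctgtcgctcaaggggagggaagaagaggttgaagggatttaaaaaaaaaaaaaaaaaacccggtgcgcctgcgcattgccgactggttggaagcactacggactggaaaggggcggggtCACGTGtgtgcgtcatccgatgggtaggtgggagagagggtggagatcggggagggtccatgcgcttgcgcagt
Eif3f at chr7:108934165-108934414, plus strand: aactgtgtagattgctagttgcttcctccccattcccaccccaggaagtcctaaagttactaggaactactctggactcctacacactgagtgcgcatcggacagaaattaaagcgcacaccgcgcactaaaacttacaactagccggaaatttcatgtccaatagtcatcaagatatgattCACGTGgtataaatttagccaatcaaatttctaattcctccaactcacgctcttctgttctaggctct

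The genes of start codon selection and of the late steps completed the set. Of the 4 genes of the eIF1 and eIF1A kind 2 fell. Eif1a, one of a pair of genes for eIF1A, which helps the ribosome scan, read 903, 866 and 846 in low IL-7 and 2099, 2136 and 2064 with IRF4, against 2538, 2413 and 2497 in high IL-7. It fell by 64.5% (log2 -1.49, SE 0.07, adjusted p = 3e-07), with the low IL-7 arrays far below the others. Its X-linked partner Eif1ax stood at 4141 to 4390 in low IL-7 and 5429 to 5857 with IRF4, against 5643 to 5982 in high IL-7, a change of -0.46 (SE 0.05, adjusted p = 6.91e-05). Eif1b, a close relative of eIF1, changed by -0.30 (adjusted p = 0.126), and Eif1ad by -0.11 (adjusted p = 0.437), though a dimmer probe set of Eif1ad changed by -0.75 (adjusted p = 0.00155 over all probe sets).

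All 5 late-acting genes fell. Eif6, which keeps free large ribosomal subunits from joining and takes part in making them, read 1717, 1485 and 1357 in low IL-7 and 2758, 2623 and 2960 with IRF4, against 3347, 2562 and 2783 in high IL-7, a change of -0.92 (SE 0.11, adjusted p = 0.000101). Eif5b, the GTPase that joins the subunits, read 1783, 1518 and 1609 in low IL-7 and 2360, 2290 and 2535 with IRF4, against 3129, 2538 and 2635 in high IL-7, a change of -0.75 (SE 0.10, adjusted p = 0.000136). In both genes the low IL-7 arrays lay below all others, and for Eif5b the IRF4 arrays also lay below those of high IL-7. The change of Eif5b with IRF4 against high IL-7 was -0.20 (adjusted p = 0.368) and did not pass. Eif5, which triggers GTP hydrolysis by eIF2, fell by 37.5% (log2 -0.68, SE 0.06, adjusted p = 5.8e-06). Eif5a, whose hypusine residue helps the ribosome through hard stretches, stood at 10586 to 12050 in low IL-7 and 14524 to 15967 with IRF4, against 14452 to 15250 in high IL-7, a change of -0.36 (SE 0.05, adjusted p = 0.000406). Eif5a2, its dim paralog, stood at 127 to 140 in low IL-7 and 180 to 185 with IRF4, against 159 to 172 in high IL-7, a change of -0.28 (SE 0.07, adjusted p = 0.00944).

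IRF4 put back in high IL-7 left 38 of the 39 genes uncalled. Against high IL-7 alone 1 gene, Eif4a2, fell and 0 rose, where 1.01% of all genes fell and 1.92% rose. By unadjusted p 3 of the 39 (7.69%) lay under 0.05, against 15.0% of all genes. Eif4a2 read 4878, 5268 and 4777 in low IL-7 and 5316, 5145 and 5066 with IRF4, against 6235, 6015 and 6315 in high IL-7. All IRF4 arrays lay below all high IL-7 arrays and overlapped with those of low IL-7. The change with IRF4 was -0.26 (SE 0.05, limma's adjusted p = 0.0309), and the call was lost without any high IL-7 array, without replicate 2 or 3 of IRF4 (highest adjusted p = 0.154), without a variance trend and with arrays scaled to the same median. The median of the 39 changes was -0.04, against -0.01 over all genes, and they ran from -0.28 (Eif2b3) to 0.14 (Eif5a2). In 6 genes all IRF4 arrays lay below those of high IL-7, as in 11% of all genes. For 3 genes with large falls in low IL-7 the 95% intervals of the change with IRF4 were -0.29 to 0.21 for Eif3b, -0.26 to 0.15 for Eif4e and -0.32 to 0.26 for Eif2b5. Eif1a, at -0.24 (adjusted p = 0.118), and Eif2b3, at -0.28 (adjusted p = 0.269), had all IRF4 arrays below all high IL-7 arrays but did not pass. Their 95% intervals, not adjusted for the number of genes, lay below 0, at -0.40 to -0.08 for Eif1a and -0.52 to -0.03 for Eif2b3.

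Low IL-7 was also set against IRF4 in high IL-7, which tests whether the responses differ. It shares the low IL-7 arrays with the first comparison and the IRF4 arrays with the second. Of the 39 genes 24 were lower and 2, Eif4e3 and Eif3f, higher in low IL-7, with a median of -0.29, against 18.6% lower and 17.7% higher among all genes. Over all genes 2386 were lower and 2265 higher, which became 2907 and 1730 with arrays scaled to the same median. Eif2b3 changed by -1.27 (SE 0.11, adjusted p = 1.18e-05), Eif1a by -1.25 (SE 0.07, adjusted p = 1.08e-06), Eif3b by -1.05 (SE 0.11, adjusted p = 4.53e-05) and Eif4e by -0.84 (SE 0.09, adjusted p = 5.39e-05). Eif4a2 was not shown to differ between low IL-7 and IRF4, at -0.06 (95% interval -0.18 to 0.06, adjusted p = 0.443). Eif3f was higher by 0.18 (adjusted p = 0.00924), but not with arrays scaled to the same median or without a variance trend. Eif4e3 was higher by 0.65 (adjusted p = 0.0253), and lost its call when replicate 1 or 3 of low IL-7 or replicate 2 or 3 of IRF4 was left out (highest adjusted p = 0.0893). Eif1b was lower by 0.44 on the log2 scale, which did not hold without any 1 low IL-7 array, without replicate 2 or 3 of IRF4 (highest adjusted p = 0.132), with quantile normalization (adjusted p = 0.0533), or in the fit blocked on replicate numbers (adjusted p = 0.0534). The falls of Eif3a and Eif3c were lost when replicate 2 or 3 of low IL-7 or replicate 1 of IRF4 was left out, that of Eif3a also without replicate 3 of IRF4, and that of Eif3c also without replicate 2 of IRF4 or replicate 3 of high IL-7 (highest adjusted p = 0.133). Without a variance trend both were lost too (adjusted p = 0.11 for Eif3a and 0.0854 for Eif3c).

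Probe sets of the same gene differed in the size of its change. Of the 39 tested genes 27 had more than 1 probe set above the filter. Over all 98 probe sets above it, 55 were lower and 3 higher in low IL-7, with p adjusted over the 45037 probe sets fitted. Among all 22720 probe sets with 1 symbol above the filter 18.4% were lower and 16% higher. Among the 18 genes that fell and had several such probe sets, every probe set was lower in 11. Eif4a1 changed by -0.57 on its brightest probe set, but by -1.07 and -1.20 on the others, and Eif3a by -0.23 on the brightest and by -1.04 on another. Eif2s2 was lower on all 6 of its probe sets, from -1.19 to -0.38, and Eif5 on all 5, from -1.11 to -0.56. In Eif4e2 3 dimmer probe sets of 5 were not called, and in Eif4e the dimmest of 3, at -0.30 (adjusted p = 0.128). Eif6 rested on 1 of 2, the dimmer at 0.03 (adjusted p = 0.828), and in Eif5b the dimmest of 3 changed by 0.21 (adjusted p = 0.271). For 7 tested genes, Eif2b2, Eif2s3x, Eif3c, Eif3m, Eif4g2, Eif4h and Eif5a, the probe set used carries a name ending that marks possible matches to other transcripts, so their signal may not be theirs alone.

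**Figure D5:**
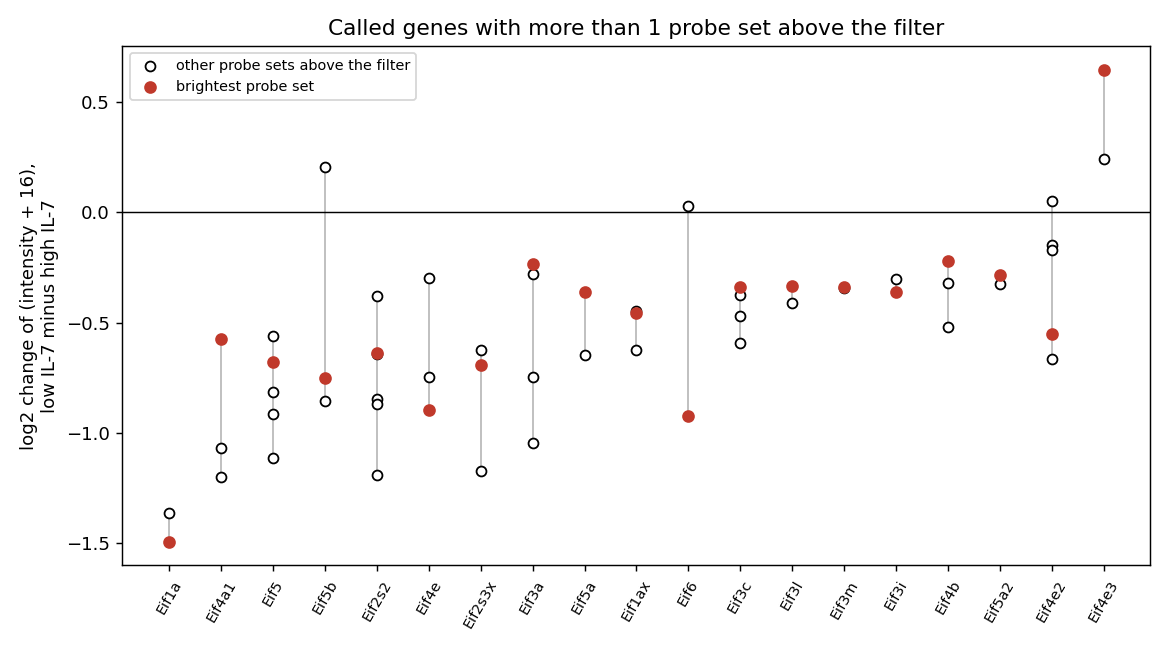
Log2 change of (intensity + 16) in low IL-7 minus high IL-7 for each probe set above the filter, for genes called in that comparison that have more than 1. The brightest probe set, used for the gene, is filled: for Eif4a1 and Eif3a it shows the smallest fall of the gene, and for Eif6, Eif5b and Eif4e2 another probe set lies above 0.

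Genes that act on or beside the initiation factors were counted from 8 lists drawn up by function. Of the 58 tested genes of all 8 lists, 26 fell in low IL-7 (44.8%, against 19.5% of all genes). In the same comparison 10 rose (17.2%, against 17.8% of all genes). Of 5 tested initiation factors without an Eif symbol 4 fell in low IL-7 and 1 rose: Denr, which with Mcts1 serves reinitiation, changed by -1.15 (SE 0.09), Dhx29, a helicase on the small subunit, by -0.78, Abce1, which splits used ribosomes, by -0.78, and Mcts1 by -0.57. The gene that rose, named after its values were seen, was Ddx3x, an RNA helicase, by 0.11 (adjusted p = 0.0361). Among 6 enzymes that modify eIF5A or handle the polyamines it needs, 4 fell and 2 rose. Srm, spermidine synthase, changed by -2.72 (SE 0.14, adjusted p = 4.07e-07), Odc1, ornithine decarboxylase, by -0.80 and Dohh, which completes hypusine, by -0.55, while Oaz2, an inhibitor of ornithine decarboxylase, rose by 0.43. Of 4 termination and rescue factors 3 fell, with Gspt1 at -1.15 and Etf1, its partner at stop codons, at -0.68.

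Regulators of the initiation factors were counted in the same way. Of the 15 tested 4E-binding protein and mTOR pathway genes 3 rose and 3 fell, shares close to the 17.8% and 19.5% of all genes. Eif4ebp1, which blocks eIF4E, changed by -0.75 (SE 0.12, adjusted p = 0.000448), Larp1, which binds messages of the translation machinery, by -0.996 and Mknk2, a kinase of eIF4E, by 0.47. Among the 6 eIF2 kinase and phosphatase genes Eif2ak3, the kinase PERK, rose by 0.57 (adjusted p = 0.00113) and 2 fell, Ppp1r15a by 0.50 on the log2 scale. With IRF4 1 of the 58 tested genes of the 8 lists by function rose (1.72%, against 1.92% of all genes) and 0 fell, and the 1 was Eif2ak3, by 0.55. Of 6 genes of the poly(A)-binding list 2 rose and 3 fell: Pdcd4, which locks eIF4A, rose by 0.57 (adjusted p = 0.00182) and Paip2, an inhibitor of poly(A)-binding protein, by 0.56, while Pabpc4 changed by -0.92. Of 8 tested genes of the elongation factor list, all with Eef symbols but not all elongation factors, 3 fell and 1 rose. Eef1e1 changed by -1.22, Eef1d by -0.85 and Eef2k, the kinase that halts elongation, by 1.01. Of 8 mitochondrial translation factors 4 fell, among them Tufm (-0.96), Gfm1 (-0.89) and Tsfm (-0.88), and 0 rose.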

How the data were processed

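Biotin-labelled total RNA was read on Affymetrix mouse arrays, per the labels' protocols. The authors deposited 1 linear intensity per probe set and array, from 0 to 24761.9. The summary, scaling and filters behind them are not given in the sources used here, and no detection p-values were at hand. Genes were named from the platform annotation (34945 probe sets with 1 symbol, 932 with several, 9160 with none and 64 controls), and all 41 symbols matched RefSeq by Entrez identifier. Groups came from the sample titles, and 0 columns were left out. Values were taken as log2(intensity + 16) with no added normalization. Single-symbol probe sets with a mean at or above the 40th percentile (an intensity of 106.5) were kept, and the brightest stood for its gene. limma 3.58.1 in R 4.3.3 fitted group means over 9 arrays (lmFit, eBayes with a trend), with Benjamini-Hochberg adjustment over 12827 genes. The procedure was tested on simulated data. Figures were drawn with matplotlib 3.10.9.

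Deviations from the group means correlated between same-numbered low and high IL-7 arrays (r = 0.54, 0.38 and 0.28), so the numbers may pair these arrays, on the data alone. Arrays with different numbers were not compared in this way. The main fit left the replicate number out, and it was a block in an alternative fit. The genes and lists were chosen with earlier results of these data known. Arrays were shown in full for the 10 largest falls, all rises, genes called with IRF4 and paralogs that differed in direction, and up to 4 called genes of each other list were named.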

Additional observations from a re-analysis of the deposited data

How the results depend on the processing

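Each result was recomputed under 20 alternatives: pseudocounts of 1 and 64, quantile normalization, scaling to the same median, no filter and a filter at the 60th percentile, the mean of a gene's probe sets, no variance trend, only the groups compared, array weights, the replicate number as a block, and each of the 9 arrays left out. In low against high IL-7, 25 of the 28 calls held under every alternative that tested them; Eif4b, Eif3h and Eif4e3 did not. Leaving out single arrays gave 24 to 25 falls, 1 to 3 rises and a median of -0.39 to -0.30, and array weights gave 30 falls and 3 rises, with Eif1ad, Eif1b, Eif2d, Eif4enif1 and Eif4h called there too. With IRF4 against high IL-7 the falls numbered 0 with scaling to the same median or without a variance trend and 5 with array weights, which also gave 2 rises, and 0 to 1 with single arrays left out (0 rises, median -0.05 to 0.00). In low IL-7 against IRF4, higher genes numbered 1 with scaling to the same median or without a trend, and 1 to 2 with single arrays left out, with 21 to 24 lower, and array weights gave 32 lower and 3 higher. The median there was -0.36 with scaling to the same median, -0.42 with the mean of the probe sets, -0.40 with array weights and -0.36 to -0.27 with single arrays left out. With array weights Eif2b2 turned to -0.16 (adjusted p = 0.032) and Eif4g2 to 0.10 (adjusted p = 0.026) in that comparison. The causes were not tested. With the replicate block 25 fell and 3 rose in low against high IL-7, and 1 fell with IRF4. The block changed no other call than that of Eif1b. Same-numbered arrays of the other comparisons correlated at -0.37 to 0.01. Changes of genes that were not called can change sign between settings. With 3 arrays a group and no detection p-values, small changes and dim probe sets are the least certain.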

Other observations

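Among the 18 genes that fell in low IL-7 and had more than 1 probe set above the filter, the brightest probe set changed less than the median of the others in 12. Over all 1300 genes that fell and had more than 1, this was so in 36.3%. The gene values given for these factors are those of the brightest probe set, and with the mean of a gene's probe sets the count of falls in low IL-7 was 26.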
